A study of Mus musculus with 24 samples.

Results

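Frozen liver of 4 furan-dosed mice was compared with frozen liver of 4 vehicle controls, gene by gene. The 8 libraries were taken by their labels, as every library made from a snap frozen piece, and they are 8 of the 24 of the series. All animals were female B6C3F1 mice, a first-generation hybrid of 2 inbred strains, 5 to 6 weeks old when bought and acclimatised for at least 7 days. Furan animals (numbers 41, 42, 43 and 44) received 8 mg furan per kg body weight per day by gavage in corn oil for 21 days. Control animals (numbers 2, 3, 4 and 6) received corn oil alone on the same schedule. Livers were collected 4 hours after the last dose. A piece of each liver was frozen, and the other 16 libraries come from pieces of the same livers that were fixed in formalin, for 18 hours in 8 of them and for 3 weeks in the other 8. Frozen RNA came from about 100 mg of tissue with an RNA integrity number above 8.9, and ribosomal RNA was removed before sequencing. Each animal gave 1 frozen library. A library is named by its group and animal number.

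Furan is a small ring compound that forms when food is heated. In hepatocytes the P450 enzyme Cyp2e1 opens the ring to a reactive dialdehyde, which binds glutathione, proteins and other nucleophiles of the cell. Cells answer such stress through several regulators. The transcription factor p53 induces genes of cell-cycle arrest and apoptosis, NRF2 induces glutathione, quinone and aldehyde enzymes, and heat shock factor 1 induces chaperones that refold proteins.

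The frozen libraries held between 37.98 and 49.33 M counts on genes, and 15249 to 16781 genes had a count. Hepatocyte RNA dominated in each, with Alb, the albumin gene, between 105159 and 130362 CPM, which are counts per M counts of the library after scaling. Among defining markers of tissues that could be cut along with liver, the pancreatic Prss2 and Pnlip and the muscle gene Ckm were listed at 0 in all 8 libraries, and the pancreatic Cpa1 reached at most 0.0587 CPM. The haemoglobin genes Hba-a1 and Hbb-b1 were also listed at 0, which does not show that blood was absent. A list of neutrophil and erythroid markers summed to 30.7 to 39.8 CPM in controls and 29.7 to 34.4 CPM with furan. Not all markers of tissues that could be cut along with liver were absent. A list of 27 markers of pancreas, fat, muscle and mesothelium summed to 34.2 to 44.3 CPM in controls, with control 3 highest. With furan the sum was 30.2 to 34.7 CPM, and 6 of the 27 were high enough to be tested. Control 3 stood apart: its mean correlation with the other controls, over log2 CPM of all genes tested, was 0.955, against 0.974 to 0.977 for controls 2, 4 and 6. It lay at -84.5 on the first principal component, which held 43.8% of the variance, while the other 7 libraries lay between -2.19 and 24.3. Results are therefore given with all 8 libraries and again without control 3. Values per library are listed in the order of the animal numbers, so that the second control value is always that of control 3. Bulk RNA of a tissue cannot tell fewer cells of a type from less RNA per cell.

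With all 8 libraries, edgeR's quasi-likelihood test called 392 of 14122 genes tested (2.78%) at a Benjamini-Hochberg adjusted p below 0.05. Of these 222 were higher with furan (1.57% of the genes tested) and 170 lower (1.2%). Rises were larger than falls: 115 of the called rises and 43 of the called falls changed at least 2-fold. The median log2 fold change over all genes tested was -0.01. In all 392 called genes the 4 furan libraries lay wholly on one side of the 4 control libraries, as they did in 1939 of all 14122 genes (13.7%). Without control 3, 1148 of 14303 genes tested were called (8.03%), 633 higher (4.43%) and 515 lower (3.6%), with a median of 0.00 over all genes, and the 7 libraries did not overlap in 2850 genes (19.9%). The 2 sets share 382 genes, each with the same direction in both, and the added calls were smaller changes, since 18.8% of the 1148 and 40.3% of the 392 changed at least 2-fold. Counts of called list members below are to be read beside these shares of all genes, 2.78% with all 8 libraries and 8.03% without control 3.

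**Figure D1:**
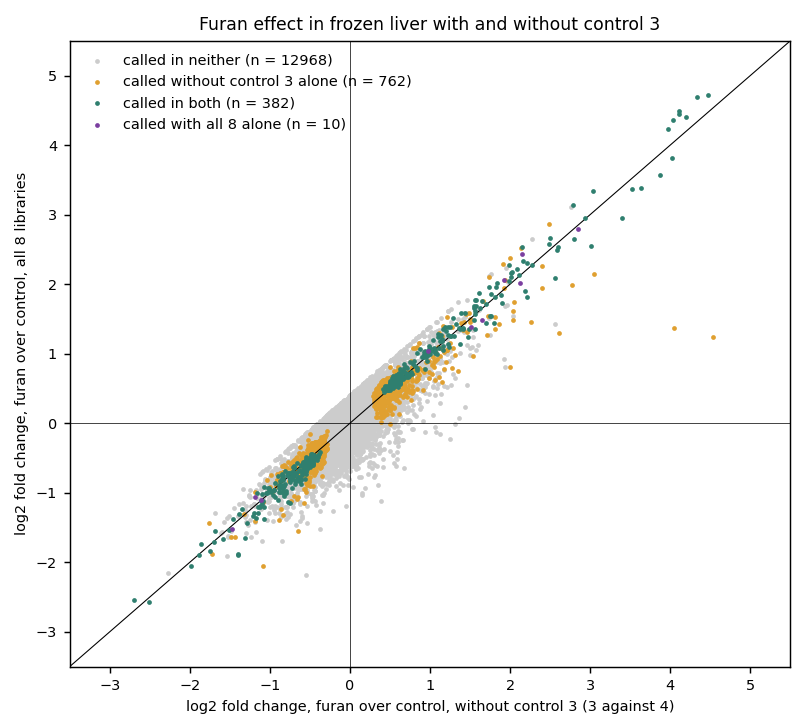
Log2 fold change of furan over control for each gene tested in both fits, without control 3 (x axis, 3 against 4 libraries) and with all 8 libraries (y axis), where points are genes, colours give the call at adjusted p below 0.05 and the line marks equal values. The 382 genes called in both lie along the line, the 762 genes called without control 3 alone crowd at small changes, and 10 genes were called with all 8 libraries alone.

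Of the 392 calls, the count moved with single libraries. Leaving out control 2, 4 or 6 gave 353, 146 and 182 calls, and leaving out furan 41, 42, 43 or 44 gave 174, 160, 105 and 99. Of the 392 called genes, 86 passed in each of the 8 fits that leave out 1 library, 184 in no more than 2 of them and Sult3a1 in none. The number of these fits in which a call held is given at the end of most paragraphs that name called genes. Other tools called more genes with all 8 libraries: DESeq2 1066, which include 391 of the 392, and limma voom with a weight for each library 1343, which include 386.

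Targets of p53 that arrest the cell cycle or feed back on p53 held the highest share of calls of the 52 lists described. Of 26 tested members of this list, 14 rose (53.8%) and 0 fell, with a median log2 fold change of 1.01. Cdkn1a encodes p21, the inhibitor of cyclin-dependent kinases through which p53 stops the cycle. Its level was 0.844, 0.291, 0.653 and 0.392 CPM in controls 2, 3, 4 and 6 and 10.3, 11.05, 14.5 and 10.8 CPM in furan 41 to 44. Every furan library thus exceeded every control many times over, and the log2 fold change was 4.40 ± 0.29 (SE, adjusted p = 5.19e-05). Mdm2, the ligase that marks p53 for destruction, stood at 28.6, 24.6, 26.8 and 23.6 CPM in controls and 55.7, 47.6, 53.3 and 56.4 CPM with furan, a change of 1.04 ± 0.11 (adjusted p = 0.00103). Phlda3, which blocks the kinase AKT at the membrane, rose from 0.434, 0.688, 0.421 and 0.172 CPM to 4.05, 3.95, 7.84 and 4.47 CPM (3.56 ± 0.38), with furan 43 apart from the other furan libraries. With 1 library left out at a time, calls held in all 8 for Cdkn1a, Mdm2 and Phlda3.

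The promoter windows of Cdkn1a and Mdm2 are shown because they hold letters that match the p53 half-site, a stretch that p53 binds in pairs. Windows run from 250 bases before to 50 bases after the transcript start, 5′ to 3′ on the gene's strand, from RefSeq (GRCm38.p6), and capitals mark the matches. The Cdkn1a window is chr17:29090729-29091028 on the plus strand, 1 of 2 annotated, with matches 73 and 51 bases before the start of that window's transcript. The gene's other start is not shown, and these distances do not hold for it. The Mdm2 window is chr10:117710709-117711008 on the minus strand with a match 186 bases before the start.
Cdkn1a: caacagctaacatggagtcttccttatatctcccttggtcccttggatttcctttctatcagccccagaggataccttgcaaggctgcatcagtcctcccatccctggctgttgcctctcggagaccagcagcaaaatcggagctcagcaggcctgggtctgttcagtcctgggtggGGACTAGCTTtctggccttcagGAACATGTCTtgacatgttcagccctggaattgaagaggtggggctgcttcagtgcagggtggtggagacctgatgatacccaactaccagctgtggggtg
Mdm2: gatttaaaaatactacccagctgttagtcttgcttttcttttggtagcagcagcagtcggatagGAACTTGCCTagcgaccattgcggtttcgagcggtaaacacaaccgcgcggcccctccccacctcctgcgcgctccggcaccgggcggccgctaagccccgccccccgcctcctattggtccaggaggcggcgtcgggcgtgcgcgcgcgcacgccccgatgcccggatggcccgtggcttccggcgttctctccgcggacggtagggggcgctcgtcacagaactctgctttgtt
On either strand, such a match was present in 9 of the 16 called p53 list members that have a window (56.2%) and in 16 of 42 tested members, called or not (38.1%). The share was 9.83% among all called rises and 11.2% among all called falls. It was 8.24% among the 10489 tested genes with a window and 9.55% among all 27025 genes with one. The 9 were Cdkn1a, Mdm2, Ccng1, Ckap2, Bmf, Polk, Aen, Gtse1 and Ddit4l. A match of letters does not show that p53 binds there in liver.

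Other members of the arrest list differed in size of change more than in separation. Ccng1, a cyclin-like feedback regulator of p53, rose from 64.3, 40.3, 60.1 and 57.7 CPM to 148, 126, 148 and 155 CPM (1.38 ± 0.15, adjusted p = 0.00103). Plk2, a polo-like kinase, rose by 1.000 ± 0.14 and Btg2, an antiproliferative regulator that is also an immediate early gene, by 1.26 ± 0.13. Zmat3, which encodes a p53-induced RNA-binding zinc finger protein, ran from 6.85, 4.55, 6.301 and 6.01 CPM to 11.4, 26.98, 18.1 and 19.7 CPM, with furan 41 lowest of the furan libraries (1.68 ± 0.24). The translesion DNA polymerase gene Polk rose by 1.02 ± 0.15 and Trp53inp1 by 1.20 ± 0.20. Ckap2, which encodes a spindle protein, held 0.941, 0.953, 0.991 and 0.858 CPM in controls, within a narrow range, and 2.702, 3.696, 5.77 and 5.91 CPM with furan (2.27 ± 0.28). Sesn2, a sestrin that restrains mTOR signalling, missed the threshold with all 8 libraries (0.99 ± 0.25, adjusted p = 0.0634) and passed without control 3 (1.31 ± 0.16, adjusted p = 0.000104). Leaving out control 3, the list had 18 members higher, 0 lower and a median of 1.03. In the fits that leave out 1 library, calls held in all 8 for Ccng1, Plk2, Btg2, Zmat3, Polk and Ckap2 and in 7 for Trp53inp1, and the largest adjusted p was 0.0521 (Trp53inp1).

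The p53 targets of apoptosis and death receptor signalling were mixed. Of 26 tested, 5 rose and 1 fell (23.1% called), with a median of 0.09. Eda2r, a receptor for the ligand ectodysplasin A2, rose from 0.772, 0.106, 0.991 and 0.956 CPM to 9.29, 14.5, 22.8 and 15.9 CPM (4.45 ± 0.46, adjusted p = 0.000888), and control 3 was the lowest library. Gdf15, a stress-induced secreted factor, went from 0.434, 0.503, 0.569 and 0.221 CPM to 2.52, 2.33, 2.71 and 2.49 CPM (2.53 ± 0.30), and the 4 furan libraries lay close together. Aen, an exonuclease of apoptosis, rose by 1.44 ± 0.23, Tnfrsf10b, a death receptor, by 2.49 ± 0.44, and Apaf1, which assembles the apoptosome, by 0.52 ± 0.12. Bmf, which promotes apoptosis by binding BCL2 proteins, fell from 24.04, 33.9, 31.9 and 27.5 CPM to 7.22, 6.77, 12.9 and 10.2 CPM (-1.66 ± 0.21, adjusted p = 0.00225). Bax, the pore-forming member of that family, depended on control 3: it had 5.59, 7.27 and 6.84 CPM in controls 2, 4 and 6, 16.1 CPM in control 3 and 12.97, 14.7, 15.1 and 12.4 CPM with furan. Its log2 fold change was 0.63 ± 0.28 with all 8 libraries (adjusted p = 0.271) and 1.07 ± 0.14 without control 3 (adjusted p = 0.000153). When each library was left out in turn, calls held in all 8 for Eda2r, Gdf15, Aen and Bmf, in 5 for Tnfrsf10b and in 1 for Apaf1, and the largest adjusted p was 0.158 (Apaf1).

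DNA repair genes had few calls. Of 41 tested, 1 rose and 1 fell (4.88%), with a median of 0.06. Rad51b, which acts in homologous recombination, fell from 14.8, 8.71, 14.6 and 12.2 CPM to 5.404, 3.52, 4.11 and 4.24 CPM (-1.55 ± 0.21, adjusted p = 0.00322). Chek1, the checkpoint kinase of stalled replication, rose from 0.506, 0.741, 0.464 and 0.392 CPM to 1.72, 0.939, 1.18 and 2.32 CPM (1.55 ± 0.37, adjusted p = 0.0483). The list counted 3 higher and 2 lower without control 3, where Brca2 was added among the lower (-0.55 ± 0.12) and Ercc3 among the higher (0.42 ± 0.11). Over the 8 fits with 1 library fewer, calls held in all 8 for Rad51b and in 1 for Chek1, and the largest adjusted p was 0.19 (Chek1).

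Quinone, aldehyde and NADPH enzymes that NRF2 induces were called in 1 direction. Of 33 tested, 11 rose and 0 fell (33.3%), with a median of 0.46, and 24 of 33 had a positive log2 fold change. Ephx1, the microsomal epoxide hydrolase, rose from 266, 286, 295 and 274 CPM to 630.1, 454, 647 and 592 CPM (1.05 ± 0.13, adjusted p = 0.00195). Nqo1, the quinone reductase often used as an NRF2 readout, had 12.03, 10.03, 10.2 and 14.4 CPM in controls and 31.1, 21.7, 26.2 and 29.3 CPM with furan (1.21 ± 0.16). Ugdh, which makes the sugar donor of glucuronidation, rose from 109, 93.7, 112 and 109.7 CPM to 236, 164, 226 and 223 CPM (1.003 ± 0.13). In each of these 3 genes furan 42 was the lowest furan library and still lay above all controls. Htatip2 rose by 0.72 ± 0.10. Leaving out libraries singly, calls held in all 8 for Ephx1, Nqo1, Ugdh and Htatip2.

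The next members had larger scatter. Nfe2l2, which encodes NRF2 itself, rose from 80.7, 70.4, 75.6 and 77.9 CPM to 146, 89.9, 115 and 114 CPM (0.61 ± 0.14, adjusted p = 0.0436). Hmox1, haem oxygenase, ran from 13.96, 18.98, 15.2 and 12.02 CPM to 61.1, 22.8, 49.95 and 23.5 CPM: furan 41 and 43 were at least 2-fold above furan 42 and 44. It passed with all 8 libraries (1.39 ± 0.30, adjusted p = 0.0379) and missed without control 3 (1.52 ± 0.45, adjusted p = 0.125). Osgin1, an oxidative stress-induced growth inhibitor, behaved alike (1.49 ± 0.29, adjusted p = 0.0214 with 8 libraries and 0.0768 without control 3). Cbr1, a carbonyl reductase, showed the reverse order, with 0.51 ± 0.17 (adjusted p = 0.151) and 0.69 ± 0.12 (adjusted p = 0.00249), and control 3 at 57.8 CPM lay within the furan range of 52.5, 56.3, 77.8 and 57.1 CPM. The list had 13 higher and 0 lower without control 3. After removal of any single library, calls held in 4 for Osgin1 and in 2 for Nfe2l2 and Hmox1, and the largest adjusted p was 0.136 (Nfe2l2).

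Genes that supply glutathione and thioredoxin had 3 calls with all 8 libraries. Of 28 tested, 3 rose and 0 fell (10.7%), with a median of 0.05. Without control 3, 7 of 29 tested rose and 2 fell. With all 8 libraries DESeq2 called 6 higher and 2 lower, and voom 7 higher and 2 lower. Gclc, the catalytic subunit that limits glutathione synthesis, rose from 425, 309.8, 412 and 322 CPM to 689.8, 561, 687 and 602 CPM (0.79 ± 0.14, adjusted p = 0.0137). Srxn1, sulfiredoxin, rose from 30.4, 31.3, 33.3 and 27.3 CPM to 87.6, 54.8, 76.4 and 71.8 CPM (1.25 ± 0.15, adjusted p = 0.00184) and Txnrd1, thioredoxin reductase, from 147, 151, 140.0 and 148 CPM to 242, 227, 225 and 222 CPM (0.64 ± 0.09). The Txnrd1 libraries spread by little within either group. Slc7a11, the cystine importer, was too low to be tested with all 8 libraries, with 0.0723, 0.0794, 0 and 0 CPM in controls and 0.163, 0.235, 0.622 and 1.504 CPM with furan. Across the leave-one-out fits, calls held in all 8 for Srxn1 and Txnrd1 and in 6 for Gclc, and the largest adjusted p was 0.0673 (Gclc).

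Promoter windows of Srxn1 and Ugdh are shown because they hold the core of the antioxidant response element, TGACNNNGC or its reverse complement GCNNNGTCA, in capitals. Of the called list members with this core, these genes had the smallest p. The Srxn1 window is chr2:152105274-152105573 on the plus strand, with the match 28 bases after the start, and the Ugdh window is chr5:65435793-65436092 on the minus strand, with matches 132 and 94 bases before the start (RefSeq, GRCm38.p6).
Srxn1: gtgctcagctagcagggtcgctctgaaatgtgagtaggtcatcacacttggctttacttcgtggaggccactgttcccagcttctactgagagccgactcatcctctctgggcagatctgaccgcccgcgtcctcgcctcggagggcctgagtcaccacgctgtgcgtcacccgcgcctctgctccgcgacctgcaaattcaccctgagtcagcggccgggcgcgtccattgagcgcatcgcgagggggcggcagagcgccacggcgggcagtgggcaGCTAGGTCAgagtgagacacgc
Ugdh: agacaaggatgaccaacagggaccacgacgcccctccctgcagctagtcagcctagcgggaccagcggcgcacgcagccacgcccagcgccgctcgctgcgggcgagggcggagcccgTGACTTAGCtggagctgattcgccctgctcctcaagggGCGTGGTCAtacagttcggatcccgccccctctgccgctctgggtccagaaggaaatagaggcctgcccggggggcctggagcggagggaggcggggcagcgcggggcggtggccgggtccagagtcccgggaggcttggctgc
Among called members of the glutathione, transferase and NRF2 lists with a window, 5 of 15 (33.3%) held this core, as did 17 of 75 tested members (22.7%) and 6 of the 25 called without control 3 (24%). The share was 15% among all called rises, 19% among all called falls and 16.8% among the 10489 tested genes with a window. The 5 were Srxn1, Ugdh, Htatip2, Txnrd1 and Nfe2l2. Only these letters were searched, not other forms of the element. A match does not show that NRF2 binds there in liver.

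Glutathione S-transferases couple glutathione to electrophiles. Of 23 tested, 3 rose and 1 fell (17.4%), with a median of 0.13. Gsta1 rose from 0.289, 0.635, 0.485 and 0.515 CPM to 2.89, 1.86, 4.46 and 2.88 CPM (2.65 ± 0.34) and Gsta2 from 2.51, 1.54, 3.67 and 2.97 CPM to 13.7, 6.49, 12.3 and 11.1 CPM (2.02 ± 0.29), with furan 42 lowest in both. These 2 genes are close copies, so reads could be split or shared between them. Gstp1, which is known as a marker of liver preneoplasia in rats, rose from 63.5, 51.3, 48.3 and 54.3 CPM to 82.8, 75.3, 101 and 81.9 CPM (0.65 ± 0.13), while Gstt2 fell from 61.2, 84.2, 67.5 and 69.3 CPM to 52.5, 44.1, 44.8 and 43.4 CPM (-0.61 ± 0.12). Gstm1, of the mu class, missed the threshold with 8 libraries (0.74 ± 0.18, adjusted p = 0.0591) and passed without control 3 (0.59 ± 0.12), which with 331 CPM was far below the other controls at 569, 525 and 606 CPM. Without control 3, 6 members were higher and 2 lower. With 1 library left out at a time, calls held in all 8 for Gsta1 and Gsta2 and in 3 for Gstp1 and Gstt2, and the largest adjusted p was 0.114 (Gstt2).

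**Figure D2:**
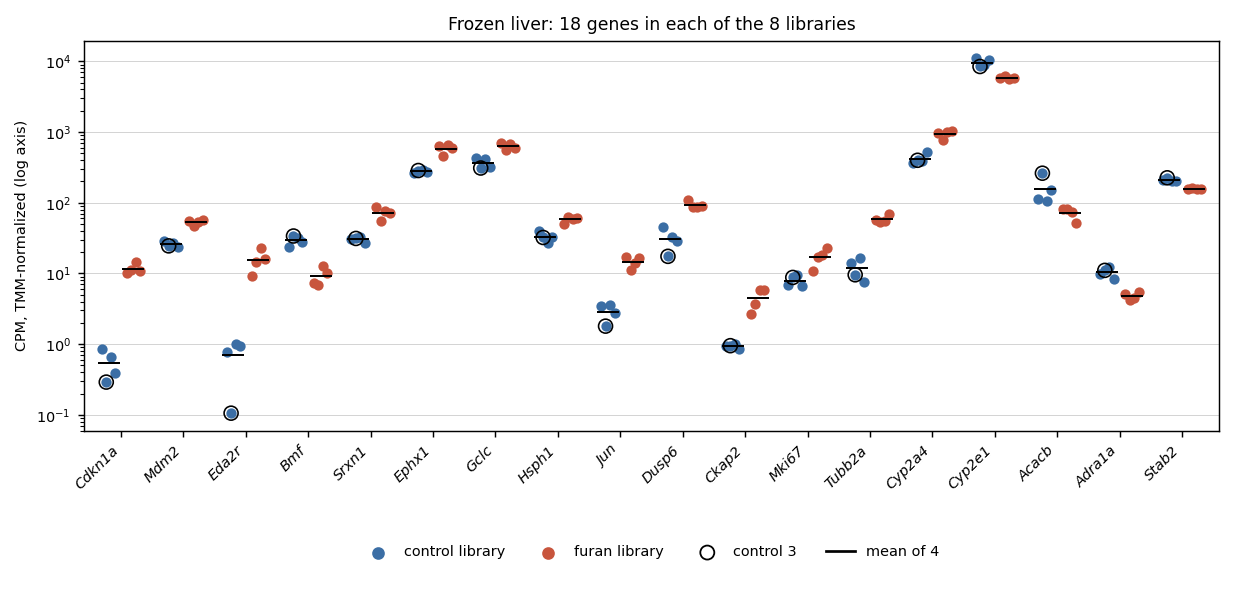
CPM (TMM-normalized, log axis) of 18 genes in each of the 4 control and 4 furan frozen libraries, where points are libraries, bars their group means and rings mark control 3. The 18 were taken from the 392 called genes, in all of which the furan libraries lie wholly above or below the controls. In Cdkn1a, Eda2r, Gclc, Jun and Dusp6 control 3 is the lowest library and in Bmf, Acacb and Stab2 the highest.

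Cytochromes P450 of families 1 to 4 moved in both directions. Of 59 tested, 3 rose and 6 fell (15.3%), with a median of -0.17. Cyp2e1, the enzyme that activates furan, fell from 10970.2, 8449, 8769 and 10289 CPM to 5754, 6297, 5599 and 5824 CPM (-0.71 ± 0.12, adjusted p = 0.0108). The furan libraries were tightly grouped. Cyp1a2, another oxidase of small molecules, fell by 0.62 ± 0.14, Cyp4f15 by 0.54 ± 0.10, Cyp2d13 by 0.81 ± 0.19 and Cyp2g1 by 1.30 ± 0.22 on the log2 scale. Cyp2a4, a steroid hydroxylase with the near-identical neighbour Cyp2a5, rose from 366, 399, 393 and 514 CPM to 966, 783, 997 and 1035 CPM (1.18 ± 0.14, adjusted p = 0.00184). Outside this list, Cyp46a1, the cholesterol 24-hydroxylase, fell from 52.5, 104, 83.4 and 82.3 CPM to 41.2, 25.6, 30.6 and 33.7 CPM (-1.30 ± 0.20). In the fits that leave out 1 library, calls held in all 8 for Cyp2a4 and Cyp46a1, in 6 for Cyp2e1 and Cyp2g1 and in 2 for Cyp1a2, Cyp4f15 and Cyp2d13, and the largest adjusted p was 0.153 (Cyp2d13).

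Members of the Cyp3a and Cyp2b families varied more between animals. Cyp3a16 held 2.24, 3.44, 3.86 and 2.84 CPM in controls and 9.41, 30.7, 6.904 and 38.9 CPM with furan, so that furan 42 and 44 were over 3-fold above furan 41 and 43. The call with all 8 libraries (2.79 ± 0.50, adjusted p = 0.0155) did not pass without control 3 (adjusted p = 0.12). Cyp3a44 rose in both fits (1.03 ± 0.20 and 0.94 ± 0.22). Cyp2b13 ran from 104, 146, 177 and 166 CPM to 89.2, 47.5, 46.4 and 92.4 CPM and was called with 8 libraries (-1.11 ± 0.25) and not without control 3 (adjusted p = 0.152). Cyp2b9, Cyp2c54 and Cyp2c38 were called lower without control 3 alone, at -0.56 ± 0.12, -0.60 ± 0.13 and -0.43 ± 0.11. These families hold near-identical copies whose reads could be shared. When each library was left out in turn, calls held in 5 for Cyp3a44, in 4 for Cyp3a16 and in 1 for Cyp2b13, and the largest adjusted p was 0.152 (Cyp2b13).

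Conjugating enzymes of the second phase split evenly. Of 29 tested glucuronosyltransferases and sulfotransferases, 2 rose and 2 fell (13.8%), with a median of 0.01. Ugt2b35 rose from 265, 152, 241 and 234 CPM to 559, 497, 509 and 559 CPM (1.25 ± 0.16, adjusted p = 0.00264). Sult1c2, a sulfotransferase, fell from 21.5, 18.3, 24.5 and 23.8 CPM to 13.1, 8.43, 9.701 and 12.2 CPM (-1.02 ± 0.16). Ugt2b37 was uneven among controls at 11.4, 1.8, 5.33 and 1.89 CPM and rose to 15.7, 31.3, 34.5 and 29.01 CPM (2.43 ± 0.52), which did not pass without control 3 (adjusted p = 0.137). Sult3a1 fell by 1.06 ± 0.24 with all 8 libraries and passed in none of the 8 fits that leave out 1. Carboxylesterases were also split: Ces2e rose from 204, 215, 183 and 232 CPM to 359, 306, 326 and 351 CPM (0.69 ± 0.11) and Ces3a fell from 1497, 1554, 1113 and 1044 CPM to 686, 829, 922 and 819 CPM (-0.68 ± 0.16). Over the 8 fits with 1 library fewer, calls held in all 8 for Ugt2b35, in 7 for Sult1c2 and Ces2e, in 2 for Ces3a, in 1 for Ugt2b37 and in none for Sult3a1, and the largest adjusted p was 0.145 (Ces3a).

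Of 42 tested nuclear receptors and liver transcription factors, 1 was called (2.38%, near the 2.78% of all genes). It was Nr1i3, the xenobiotic receptor CAR, which fell from 184, 205, 195 and 256 CPM to 162, 125, 112 and 117 CPM (-0.70 ± 0.15, adjusted p = 0.0328). In this list 4 had an unadjusted p below 0.05, and DESeq2 and voom each called 0 higher and 2 lower. Cebpa, a hepatocyte differentiation factor, had 237, 258, 245 and 252 CPM in controls and 205, 207, 202 and 193 CPM with furan, without overlap, and did not pass (-0.30 ± 0.09, adjusted p = 0.123). Leaving out libraries singly, the call held in 3 for Nr1i3, and the largest adjusted p was 0.135.

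Cytosolic and mitochondrial chaperones had 5 calls, all higher. Of 42 tested, 5 rose and 0 fell (11.9%), with a median of 0.32, and 35 of the 42 had a positive log2 fold change. Hsph1, a nucleotide exchange factor of HSP70, rose from 40.3, 32.3, 26.7 and 32.3 CPM to 50.7, 62.5, 59.3 and 60.1 CPM (0.82 ± 0.14, adjusted p = 0.0108). Hspa4l, of the same family, rose from 23.9, 17.8, 20.1 and 17.9 CPM to 29.2, 35.4, 44.1 and 45.4 CPM (0.95 ± 0.16). Hsp90aa1, the inducible HSP90, went from 28.00, 16.4, 19.7 and 17.6 CPM to 38.8, 33.8, 41.1 and 51.6 CPM (1.02 ± 0.19), Hspa8, the constitutive HSP70, rose by 0.63 ± 0.13 and Cct3, a subunit of the actin and tubulin folding chaperonin, by 0.52 ± 0.12. Without control 3, 11 rose and 0 fell, among them Chordc1 (0.55 ± 0.11), Hspb8 (0.45 ± 0.12), Cct5 (0.35 ± 0.09), Hsp90ab1 (0.44 ± 0.11) and the cochaperone Bag3 (0.55 ± 0.12). Chaperones of the endoplasmic reticulum and genes of its unfolded protein response had no such calls: edgeR called 0 of 31 tested in either fit, with a median of 0.11, where 2 had an unadjusted p below 0.05 and DESeq2 and voom also called 0. After removal of any single library, calls held in 6 for Hsph1 and Hspa4l, in 4 for Hsp90aa1, in 3 for Hspa8 and in 1 for Cct3, and the largest adjusted p was 0.151 (Cct3).

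The Hsph1 window is shown for its heat shock element (3 triplets GAA or its complement TTC in alternation, each 2 bases apart), in capitals, 15 bases after the start. It spans chr5:149636266-149636565 on the minus strand (RefSeq, GRCm38.p6) and is 1 of 2 windows annotated for the gene.
Hsph1: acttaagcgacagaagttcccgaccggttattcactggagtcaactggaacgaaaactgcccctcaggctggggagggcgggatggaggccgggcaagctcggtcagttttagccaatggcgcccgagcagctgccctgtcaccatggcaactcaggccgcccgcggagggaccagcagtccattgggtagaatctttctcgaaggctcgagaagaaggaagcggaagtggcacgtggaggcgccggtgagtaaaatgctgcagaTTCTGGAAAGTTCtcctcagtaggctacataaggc
The element was present in 1 of 3 called chaperones with a window (33.3%), in 5 of 34 tested chaperones (14.7%) and in 0.61% of tested genes. The 5 were Hsph1, Chordc1, Hspd1, Hspe1 and Dnajb6. A match of letters does not show that heat shock factor 1 binds there in liver.

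The ATF4 and amino acid response had calls in both directions. Of 33 tested, 4 rose and 1 fell (15.2%), with a median of 0.21. Atf4, the transcription factor of the response, rose from 68.8, 64.9, 71.00 and 69.7 CPM to 100.4, 99.4, 97.3 and 103 CPM (0.54 ± 0.09, adjusted p = 0.0122), with little spread in either group. Atf3, a stress-induced partner, rose from 1.11, 1.16, 2.63 and 0.834 CPM to 12.8, 6.24, 8.17 and 7.39 CPM (2.57 ± 0.36), and Psat1, of serine synthesis, by 1.37 ± 0.31. Trib3, a pseudokinase that feeds back on ATF4, fell from 9.65, 7.57, 6.55 and 5.86 CPM to 4.31, 3.402, 3.66 and 2.26 CPM (-1.12 ± 0.23, adjusted p = 0.0274). Without control 3, Chac1, which degrades glutathione, and Slc7a5, an amino acid transporter, were also lower (-1.18 ± 0.35 and -0.84 ± 0.20), and Mthfd2, of mitochondrial folate metabolism, was higher (1.21 ± 0.32). Across the leave-one-out fits, calls held in all 8 for Atf3, in 6 for Atf4, in 3 for Trib3 and in 1 for Psat1, and the largest adjusted p was 0.14 (Psat1).

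Immediate early genes and their feedback had 7 edgeR calls 4 hours after the last dose, all higher. Of 33 tested AP-1 and immediate early genes, 4 rose and 0 fell (12.1%), with a median of 0.25. Jun, the core of AP-1, rose from 3.42, 1.8, 3.56 and 2.795 CPM to 16.8, 11.2, 13.99 and 16.7 CPM (2.34 ± 0.23, adjusted p = 0.000819), while its partners Fosl2 and Jund rose by 0.89 ± 0.17 and 0.65 ± 0.14. Of 23 tested genes of MAP kinase feedback, 3 rose and 0 fell (13%), with a median of 0.31. In these 23 DESeq2 called 3 higher and 1 lower, and voom 4 higher and 1 lower. In the AP-1 list they called 8 and 7 higher and 0 lower. Dusp8, a phosphatase of stress-activated kinases, rose from 0.217, 0.371, 0.148 and 0.245 CPM to 3.35, 2.17, 2.82 and 1.84 CPM (3.38 ± 0.35), and Dusp6, which acts on ERK, from 45.7, 17.5, 32.6 and 28.7 CPM to 109.8, 86.99, 88.2 and 89.3 CPM (1.59 ± 0.23). Dusp16 rose by 0.67 ± 0.12. The AP-1 letters TGANTCA were in 0 of 4 called AP-1 list members with a window, against 6.67% of tested genes. With 1 library left out at a time, calls held in all 8 for Jun, Dusp8 and Dusp6, in 4 for Dusp16, in 2 for Fosl2 and in 1 for Jund, and the largest adjusted p was 0.105 (Jund).

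YAP and TGF-beta response genes had 4 of 37 higher and 1 lower (13.5%), with a median of 0.01. Fst, follistatin, which binds activins, rose from 2.63, 0.582, 2.19 and 1.77 CPM to 8.31, 8.41, 11.01 and 7.08 CPM (2.27 ± 0.35, adjusted p = 0.00723), and control 3 was the lowest library. Ajuba, a LIM protein of Hippo signalling, rose by 0.95 ± 0.18 and Skil, a TGF-beta corepressor, by 0.79 ± 0.16. Inhbc, a hepatic activin subunit, fell from 60.9, 58.2, 51.2 and 48.7 CPM to 34.9, 36.6, 42.2 and 37.5 CPM (-0.53 ± 0.12), and Inhbe, another activin subunit of liver, did not pass with 8 libraries and was higher without control 3 (0.62 ± 0.12, adjusted p = 0.00601). Tsku, a secreted antagonist of BMP signalling, rose from 9.28, 11.46, 10.8 and 20.9 CPM to 69.2, 51.1, 53.9 and 41.4 CPM (2.04 ± 0.25), although control 6 was nearly 2-fold above the other controls. In the fits that leave out 1 library, calls held in all 8 for Fst and Tsku, in 3 for Ajuba and Skil and in 1 for Inhbc, and the largest adjusted p was 0.133 (Inhbc).

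Receptors for hormones and catecholamines were lower where called. Of 29 tested, 0 rose and 3 fell (10.3%), with a median of -0.20, and 6 of the 29 had a positive log2 fold change. Adra1a, an alpha-1 adrenergic receptor, fell from 9.98, 11.1, 12.2 and 8.34 CPM to 5.12, 4.18, 4.48 and 5.43 CPM (-1.11 ± 0.17, adjusted p = 0.00617). Adrb3, a beta-adrenergic receptor, fell from 7.55, 9.56, 9.53 and 6.69 CPM to 3.87, 3.38, 4.02 and 3.59 CPM (-1.17 ± 0.17), and Npr2, a natriuretic peptide receptor, by 0.68 ± 0.14 on the log2 scale. Without control 3 the count was 8 lower and 0 higher, adding Adra1b (-0.42 ± 0.10), the glucagon receptor Gcgr (-0.33 ± 0.09), the leptin receptor Lepr (-0.85 ± 0.15), the growth hormone receptor Ghr (-0.44 ± 0.10) and the angiotensin receptor Agtr1a (-0.45 ± 0.09). In Gcgr control 3 was the highest control, at 225 CPM against 121, 140.2 and 125 CPM, and in Lepr the lowest, at 13.3 CPM against 32.7, 35.7 and 30.4 CPM. Of 25 tested genes of the growth hormone and IGF axis, 0 were called with all 8 libraries, 7 of 25 had a positive log2 fold change and 9 an unadjusted p below 0.05, and DESeq2 called 1 lower and voom 2. Without control 3, edgeR called 2 lower, Ghr among them. When each library was left out in turn, calls held in all 8 for Adra1a and Adrb3 and in 2 for Npr2, and the largest adjusted p was 0.0926 (Npr2).

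Tubulins, the subunits of microtubules, rose in 4 of 19 tested cases and fell in 0 (21.1%), with a median of 0.20. Tubb2a had 14.2, 9.58, 16.4 and 7.55 CPM in controls and 57.02, 54.2, 54.4 and 69.9 CPM with furan (2.304 ± 0.22, adjusted p = 0.000819), and Tubb4b 20.6, 20.5, 18.6 and 14.4 CPM and 40.6, 40.3, 46.04 and 49.02 CPM (1.25 ± 0.14). Tuba1c rose by 1.19 ± 0.18 and Tuba4a by 0.74 ± 0.13. Furan 44 was the highest library in all 4 genes. Of 42 genes of the actin cytoskeleton, keratins and injury, 1 was called with all 8 libraries (2.38%, against 2.78% of all genes). It was Tnfrsf12a, the receptor of the cytokine TWEAK, which rose from 3.55, 2.09, 2.63 and 3.51 CPM to 14.3, 8.897, 13.6 and 8.92 CPM (1.95 ± 0.23). In this list 10 had an unadjusted p below 0.05, DESeq2 called 2 higher and 1 lower, and voom 7 higher and 0 lower. Without control 3, 7 rose, among them the hepatocyte keratins Krt18 (0.55 ± 0.10) and Krt8 (0.50 ± 0.11). In Krt18 control 3 held 239.8 CPM, above the furan libraries at 168, 147, 196 and 186 CPM, while the other controls held 119, 124 and 114 CPM. Over the 8 fits with 1 library fewer, calls held in all 8 for Tubb2a, Tubb4b, Tuba1c and Tnfrsf12a and in 6 for Tuba4a, and the largest adjusted p was 0.0628 (Tuba4a).

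Cell cycle and mitosis genes were called mostly higher. Of 68 tested, 10 rose and 1 fell (16.2%), with a median of 0.54, and 56 of 68 had a positive log2 fold change. Mki67, the proliferation antigen Ki-67, rose from 6.82, 8.79, 9.505 and 6.67 CPM to 10.8, 17.1, 18.2 and 22.8 CPM (1.12 ± 0.22, adjusted p = 0.024). Hmmr, a spindle protein and hyaluronan receptor, rose from 1.01, 0.821, 0.948 and 0.638 CPM to 3.03, 1.86, 4.75 and 5.47 CPM (2.14 ± 0.34), and the mitotic cyclin Ccnb2 from 0.506, 0.556, 0.991 and 0.7601 CPM to 2.12, 1.88, 2.84 and 3.405 CPM (1.85 ± 0.30). In Mki67 and Ccnb2 furan 44 was the highest and furan 41 or 42 the lowest of the furan libraries. Other mitotic rises were Cenpf (1.73 ± 0.34), Kif11 (1.02 ± 0.23), Tpx2 (1.44 ± 0.33), Mad2l1 (0.89 ± 0.20) and Aurkb (1.54 ± 0.36), and the replicative helicase subunits Mcm6 and Mcm7 rose by 0.99 ± 0.22 and 0.61 ± 0.14. Tk1, thymidine kinase of the S phase salvage pathway, went the other way, from 10.6, 13.6, 10.5 and 14.5 CPM to 6.498, 7.41, 8.92 and 7.02 CPM (-0.72 ± 0.17, adjusted p = 0.0436). Mybl1, a MYB family factor outside this list, rose from 1.35, 0.715, 1.12 and 1.18 CPM to 4.77, 2.93, 5.37 and 6.496 CPM (2.16 ± 0.29). Leaving out libraries singly, calls held in all 8 for Hmmr and Mybl1, in 7 for Ccnb2, in 4 for Mki67, in 3 for Cenpf, in 2 for Kif11, Mad2l1, Mcm6 and Tk1 and in 1 for Tpx2, Aurkb and Mcm7, and the largest adjusted p was 0.18 (Aurkb).

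The cell cycle list had 23 higher and 2 lower members of 68 without control 3. Added rises included Ccna2 (1.08 ± 0.25), Ttk (1.45 ± 0.40), Bub1 (1.43 ± 0.40), Kif20a (1.18 ± 0.25), Cdc20 (1.71 ± 0.37), Aurka (0.85 ± 0.21) and Plk1 (2.61 ± 0.57). For Plk1 the controls other than control 3 held 0.0965, 0.148 and 0.0981 CPM, control 3 held 0.847 CPM and the furan libraries 0.279, 0.645, 0.977 and 0.961 CPM, so that control 3 lay within the furan range. Replication-dependent histones, whose transcripts lack poly(A) tails and are kept by ribosomal depletion, had 2 of 32 higher (6.25%) and a median of 0.13, which was 0.41 without control 3. Their median level in control 3 was 0.80 above the other controls on the log2 scale. Hist1h1b rose from 0.844, 0.768, 0.717 and 0.466 CPM to 1.54, 1.92, 1.91 and 1.86 CPM (1.37 ± 0.27). After removal of any single library, the call held in 3 for Hist1h1b, and the largest adjusted p was 0.0884.

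Genes that build ribosomes had small positive changes in most members. Of 47 tested assembly factors, 5 rose and 0 fell (10.6%), with a median of 0.26, and 42 of 47 had a positive log2 fold change. Utp20, of the small subunit processome, rose from 37.9, 33.3, 36.02 and 38.6 CPM to 54.7, 52.2, 58.3 and 59.6 CPM (0.62 ± 0.10, adjusted p = 0.0106), and Heatr1 from 33.6, 35.2, 31.4 and 34.01 CPM to 51.2, 54.4, 43.4 and 48.9 CPM (0.56 ± 0.11). Nop58, a core protein of box C/D small nucleolar particles, rose by 1.01 ± 0.22, Gtpbp4 by 0.68 ± 0.16 and Tsr1 by 0.53 ± 0.13. Without control 3 the count was 19 of 47 higher and 0 lower, with Bysl (0.71 ± 0.13), Rrp12 (0.92 ± 0.15), Polr1a (0.42 ± 0.11), Bop1 (0.58 ± 0.14) and Nop2 (0.47 ± 0.11) among those added. Control 3 held 35.1 CPM of Nop2, more than any furan library (24.5, 23.1, 24.7 and 22.96 CPM), and the other controls 15.6, 17.3 and 18.9 CPM. Across the leave-one-out fits, calls held in 5 for Utp20, in 3 for Heatr1, in 2 for Nop58 and in 1 for Gtpbp4 and Tsr1, and the largest adjusted p was 0.183 (Tsr1).

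Other steps of protein production had calls in the same direction. Cytosolic aminoacyl-tRNA synthetases, which load amino acids on tRNA, had 2 of 23 higher (8.7%), Tars (0.62 ± 0.14) and Iars (0.48 ± 0.11), and 8 of 23 without control 3. Nuclear transport factors had 2 of 44 higher (4.55%), the exportin Xpo1 (0.70 ± 0.13) and the importin Kpnb1 (0.53 ± 0.12), and 8 of 44 without control 3. Neither list had a member lower in either fit. Xpo1 went from 67.2, 46.1, 57.1 and 62.7 CPM to 92.6, 90.9, 94.7 and 101 CPM, with control 3 lowest. Splicing regulators and proteasome subunits had 0 of 40 and 0 of 39 members called with all 8 libraries, with a median of 0.11 in each, where 10 and 7 had an unadjusted p below 0.05, DESeq2 called 2 higher and 1 lower and 0 higher and 1 lower, and voom 2 higher and 1 lower in each. Genes of the respiratory chain and mitochondrial ribosome had 0 of 84 called and a median of 0.11, with 5 at an unadjusted p below 0.05, and 2 were called higher by DESeq2, 3 by voom and 2 by edgeR without control 3. With 1 library left out at a time, calls held in 5 for Xpo1 and in 2 for Tars, Iars and Kpnb1, and the largest adjusted p was 0.18 (Kpnb1).

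Fatty acid synthesis was lower where edgeR called it with all 8 libraries, and mixed in other fits. Of 42 tested genes of fatty acid and triglyceride synthesis, 0 rose and 3 fell (7.14%), with a median of -0.17. Without control 3, 4 of them rose and 4 fell. With all 8 libraries DESeq2 called 4 higher and 4 lower, and voom 5 higher and 3 lower. Elovl3, a fatty acid elongase, ran from 11.6, 7.07, 4.15 and 2.38 CPM in controls, nearly 5-fold between control 6 and control 2, to 1.05, 0.8799, 0.888 and 1.4 CPM with furan (-2.57 ± 0.43, adjusted p = 0.0115). Acacb, the acetyl-CoA carboxylase that restrains mitochondrial oxidation, fell from 112, 262, 107 and 151 CPM to 81.6, 82.5, 73.02 and 51.97 CPM (-1.13 ± 0.27), and without control 3, its highest library, the change was -0.77 ± 0.17. Dgat2, which closes triglyceride synthesis, fell by 0.60 ± 0.14 on the log2 scale. Of 50 genes of PPAR alpha and fatty acid oxidation 1 rose and 1 fell (4%): Acsl4 went from 117, 61.4, 95.7 and 109.7 CPM to 166, 168, 178 and 177 CPM (0.84 ± 0.17), and Acsl1, the main hepatic acyl-CoA synthetase, from 2254, 2526, 2006 and 1782 CPM to 1675, 1258, 1321 and 1354 CPM (-0.61 ± 0.14). Without control 3 this list had 6 lower, among them the fatty acid transporter Slc27a2 (-0.43 ± 0.12). Cholesterol genes had 1 of 35 called (2.86%, near the 2.78% of all genes), the acyltransferase Soat2 (-0.80 ± 0.18). In these 35, 7 had an unadjusted p below 0.05, DESeq2 called 1 higher and 2 lower, and voom 2 higher and 2 lower. In the fits that leave out 1 library, calls held in 7 for Elovl3, in 3 for Acsl1 and Soat2 and in 2 for Acacb, Dgat2 and Acsl4, and the largest adjusted p was 0.172 (Dgat2).

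Genes of bile acid synthesis and transport were called mostly lower. Of 34 tested, 1 rose and 4 fell (14.7%), with a median of -0.12. Slco2b1, an uptake transporter for organic anions, fell from 205, 265, 206 and 241 CPM to 139, 124, 132 and 133 CPM (-0.80 ± 0.12, adjusted p = 0.00505). Slc10a2, the apical bile acid transporter of bile ducts and ileum, rose from 8.08, 12.3, 7.86 and 6.67 CPM to 16.02, 21.5, 27.5 and 23.96 CPM (1.35 ± 0.21, adjusted p = 0.00874). Abcc6 fell by 1.14 ± 0.26, where control 3 at 286 CPM stood above the other controls at 109, 146 and 129 CPM, and without control 3 the change was -0.75 ± 0.11. Slc22a30 and Slc10a5 fell by 0.51 ± 0.12 and 0.44 ± 0.10 on the log2 scale. Slc10a1, which takes up bile acids from blood, was called lower without control 3 alone (-0.54 ± 0.12). When each library was left out in turn, calls held in all 8 for Slco2b1 and Slc10a2, in 2 for Abcc6 and in 1 for Slc22a30 and Slc10a5, and the largest adjusted p was 0.165 (Slc22a30).

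Genes of both liver zones, pericentral, where Cyp2e1 is made, and periportal, were called mostly lower. Of 39 pericentral genes 1 rose and 5 fell (15.4%), and of 41 periportal and urea cycle genes 0 rose and 2 fell (4.88%), with medians of -0.10 and -0.11. The pericentral falls were Cyp2e1, Cyp1a2 and Nr1i3, already described, with Lhpp (-0.78 ± 0.14) and Notum, a secreted Wnt antagonist (-1.005 ± 0.19). Notum ran from 25.3, 49.6, 31.4 and 35.4 CPM to 18.6, 19.8, 16.9 and 15.2 CPM, with control 3 highest. The rise was Aldh1a1, a retinaldehyde dehydrogenase and NRF2 target, from 1004, 805, 883 and 1103 CPM to 1667, 1223, 1454 and 1654 CPM (0.66 ± 0.14). Glul, glutamine synthetase of the innermost pericentral cells, had 1246, 1184, 986 and 1103 CPM and 844, 871, 897 and 823 CPM (-0.40 ± 0.11, adjusted p = 0.0848) and passed without control 3 (-0.37 ± 0.10). Among periportal genes Prodh, proline dehydrogenase, fell from 141, 167, 127 and 182 CPM to 99.8, 90.4, 96.1 and 77.5 CPM (-0.76 ± 0.14) and Hsd17b6 by 0.57 ± 0.13. Leaving out control 3, the pericentral list counted 2 higher and 8 lower and the periportal list 3 higher and 5 lower. Whether the 2 lists differ was not tested. Over the 8 fits with 1 library fewer, calls held in 5 for Prodh, in 4 for Lhpp, Notum and Aldh1a1 and in 1 for Hsd17b6, and the largest adjusted p was 0.176 (Hsd17b6).

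Tryptophan and one-carbon metabolism had calls in both directions. Acmsd, which diverts tryptophan catabolism from NAD synthesis, rose from 13.6, 9.45, 12.7 and 13.6 CPM to 40.9, 35.8, 46.3 and 44.1 CPM (1.76 ± 0.15, adjusted p = 0.000285), and Ido2, at the head of the pathway, fell from 47.7, 45.9, 40.5 and 43.97 CPM to 25.2, 27.5, 28.2 and 26.5 CPM (-0.73 ± 0.10). Bhmt, which remethylates homocysteine with betaine, rose from 156, 67.6, 102 and 150.4 CPM to 441, 234, 267 and 279 CPM (1.36 ± 0.27) and Aox1, aldehyde oxidase, by 0.63 ± 0.12. The list had 3 of 36 higher and 1 lower (11.1%). Of 48 genes of glucose metabolism 1 was called (2.08%, against 2.78% of all genes), Gckr, the regulator of glucokinase (-0.63 ± 0.13). In these 48, 9 had an unadjusted p below 0.05, DESeq2 called 1 higher and 4 lower, and voom 1 higher and 5 lower. Leaving out libraries singly, calls held in all 8 for Acmsd and Ido2, in 4 for Bhmt and in 3 for Aox1 and Gckr, and the largest adjusted p was 0.106 (Gckr).

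Arntl, which encodes the clock activator BMAL1, was one of 2 called members of 28 circadian genes (7.14%), both higher. Its level was 5.21, 2.12, 3.58 and 0.858 CPM in controls, about 6-fold between control 6 and control 2, and 11.2, 14.8, 10.5 and 12.5 CPM in the narrower furan group (2.06 ± 0.40, adjusted p = 0.0236). Without control 3 it was 1.93 ± 0.54 and did not pass (adjusted p = 0.108). Its window is shown because it holds the ROR element core TAGGTCA, in capitals, the letters through which ROR and REV-ERB receptors are known to act on clock genes. The match lies 30 bases after the start in chr7:113207261-113207560 on the plus strand, 1 of 2 windows of the gene (RefSeq, GRCm38.p6).
Arntl: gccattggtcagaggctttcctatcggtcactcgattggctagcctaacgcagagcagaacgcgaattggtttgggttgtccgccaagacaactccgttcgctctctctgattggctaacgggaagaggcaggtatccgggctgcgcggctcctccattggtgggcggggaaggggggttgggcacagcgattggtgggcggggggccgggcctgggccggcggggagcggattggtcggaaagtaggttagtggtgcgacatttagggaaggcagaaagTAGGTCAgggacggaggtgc
On either strand the core was in 2 of 21 tested clock genes with a window (9.52%), Arntl and Nfil3, and in 2.53% of tested genes. A match of letters does not show binding there in liver. The other called clock list member, Tspan4, rose by 0.55 ± 0.11. Most clock genes leaned lower: the median of the 28 was -0.18, and 11 had a positive log2 fold change. Without control 3 the list had 2 higher and 1 lower. After removal of any single library, calls held in 2 for Arntl and in 1 for Tspan4, and the largest adjusted p was 0.118 (Tspan4).

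Secreted proteins of hepatocytes had mostly negative changes, with 16 of 62 positive. Of 62 carriers, apolipoproteins and coagulation factors 1 rose and 2 fell (4.84%) with all 8 libraries, and 1 rose and 12 fell without control 3, with medians of -0.16 and -0.15. Apoc2, the activator of lipoprotein lipase, rose against this from 152, 117, 151 and 145 CPM to 306, 275, 347 and 268 CPM (1.08 ± 0.13, adjusted p = 0.00184). Fetub and Serpinf1 fell by 0.59 ± 0.13 and 0.46 ± 0.11 on the log2 scale. Falls added without control 3 included the coagulation factors F5 (-0.48 ± 0.10), F7 (-0.36 ± 0.09) and F11 (-0.39 ± 0.11), protein C (Proc, -0.44 ± 0.10) and the macroglobulin Mug1 (-0.65 ± 0.16). For F7, control 3 held 165 CPM, the other controls 91.4, 88.8 and 91.6 CPM and the furan libraries 71.97, 78.4, 70.2 and 61.7 CPM. Of 44 acute phase and complement genes 1 was called with all 8 libraries (2.27%, against 2.78% of all genes), complement C2 (-0.44 ± 0.10). With the same libraries 17 of the 44 had an unadjusted p below 0.05. DESeq2 called 3 higher and 6 lower, and voom 4 higher and 6 lower. Without control 3, 2 were higher and 5 lower, where 8.03% of all genes were called. Across the leave-one-out fits, calls held in all 8 for Apoc2 and in 1 for Fetub, Serpinf1 and C2, and the largest adjusted p was 0.166 (Serpinf1).

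Major urinary proteins, pheromone carriers encoded by a family of near-identical genes, had 1 of 17 called (5.88%). Mup20, which encodes the pheromone darcin, rose from 11.8, 4.16, 5.92 and 4.76 CPM to 35.2, 28.6, 69.3 and 36.5 CPM (2.67 ± 0.36, adjusted p = 0.00363). Mup17 ran from 183, 76.01, 70.2 and 14.1 CPM in controls to 42.97, 55.9, 86.4 and 25.1 CPM with furan, a spread within groups larger than the difference. Of 38 genes of metals and iron 1 rose and none fell (2.63% called, near the 2.78% of all genes). It was Tfrc, the transferrin receptor, with 26.96, 14.6, 23.4 and 28.6 CPM in controls and 54.99, 54.2, 46.8 and 89.2 CPM with furan (1.39 ± 0.24). In this list 8 had an unadjusted p below 0.05, and DESeq2 and voom each called 2 higher and 0 lower. With 1 library left out at a time, calls held in all 8 for Mup20 and in 7 for Tfrc, and the largest adjusted p was that of Tfrc without control 4, which rounds to 0.05 and lay just above the threshold.

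Genes linked to fetal liver and liver tumours rose in 5 of 27 tested cases and fell in 0 (18.5%), with a median of 0.28. Akr1c18, a progesterone reductase, rose from 0.121, 0.0265, 0.126 and 0.04904 CPM to 0.792, 1.96, 1.82 and 1.82 CPM (4.23 ± 0.50), Prom1, a progenitor and bile duct surface protein, from 11.7, 10.8, 8.66 and 9.51 CPM to 15.5, 21.1, 22.1 and 27.2 CPM (1.08 ± 0.18) and Afp, alpha-fetoprotein, from 4.34, 4.47, 5.395 and 4.78 CPM to 6.45, 6.902, 12.7 and 11.4 CPM (0.98 ± 0.23). Golm1, a Golgi protein, rose by 0.89 ± 0.18 and the imprinted RNA H19 by 1.95 ± 0.46. In Prom1 furan 44 was highest and in Afp furan 43. Of 37 matrix genes 2 rose (5.41%), Mmp12, macrophage elastase (4.71 ± 0.55), and Hapln1, a hyaluronan link protein (4.48 ± 0.67). Mmp12 differed among furan animals from 7.24, 2.89, 15.4 and 9.17 CPM in furan 41 to 44, over 5-fold between furan 42 and 43, and every one exceeded the controls (0.217, 0.132, 0.611 and 0.319 CPM). In the fits that leave out 1 library, calls held in all 8 for Akr1c18, Prom1, Mmp12 and Hapln1, in 3 for Golm1, in 2 for Afp and in 1 for H19, and the largest adjusted p was 0.171 (Afp).

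Markers of the other liver cells had few edgeR calls with all 8 libraries. Sinusoidal endothelial markers had 0 of 35 higher and 1 lower (2.86%, near the 2.78% of all genes), with a median of -0.28. A positive log2 fold change was seen in 4 of the 35. An unadjusted p below 0.05 was seen in 15 of the 35, against 2593 of all 14122 genes tested. DESeq2 called 6 lower and voom 8, and neither called any higher. The 8 libraries did not overlap between groups in 11 of the 35, against 13.7% of all genes. The summed level of these markers was 1811 to 1921 CPM in controls and 1514 to 1581 CPM with furan, without overlap. Stab2, a scavenger receptor, was the called member, from 207, 225, 202 and 202 CPM to 155, 164, 155 and 154 CPM (-0.42 ± 0.10, adjusted p = 0.0436), and without control 3 8 members were lower. Kupffer cell and macrophage markers had 2 of 32 higher (6.25%), Mmp12 and Hmox1, while their median was -0.27, and the summed level was 1004 to 1787 CPM in controls and 1099 to 1194 CPM with furan. Clec4f, which marks Kupffer cells, had 109, 156, 174 and 98.8 CPM in controls and 104, 104, 111 and 108 CPM with furan, and the groups overlapped. Stellate cell markers had 0 of 24 called and a median of -0.24, 7 at an unadjusted p below 0.05 and calls by DESeq2 of 1 higher and 3 lower and by voom of 1 and 1, lymphocyte markers 0 of 21 (0 unadjusted and by either tool), neutrophil and erythroid markers 0 of 5 (likewise 0) and bile duct and gallbladder markers 1 of 18 higher (5.56%), which was Prom1. A low number of calls does not show that these cells kept their number. When each library was left out in turn, the call held in 1 for Stab2, and the largest adjusted p was 0.166.

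Inflammatory genes were called in few cases. Of 37 chemokines, cytokines and adhesion genes 2 rose (5.41%). Cxcl10, a chemokine for T cells, rose from 2.46, 2.38, 3.899 and 3.38 CPM to 7.57, 7.14, 10.8 and 7.14 CPM (1.43 ± 0.22, adjusted p = 0.00723), and Icam1, an adhesion receptor, by 0.67 ± 0.16. Without control 3, Ccl2 (2.13 ± 0.42) and Cxcl1 (0.68 ± 0.20) were added and Il18 was lower (-0.43 ± 0.13). Interferon response and antigen presentation genes had 0 of 48 called with all 8 libraries, 8 at an unadjusted p below 0.05 and 2 lower by DESeq2 and by voom, and 11 of 48 had a positive log2 fold change. Over the 8 fits with 1 library fewer, calls held in all 8 for Cxcl10 and in 1 for Icam1, and the largest adjusted p was 0.142 (Icam1).

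**Figure D3:**
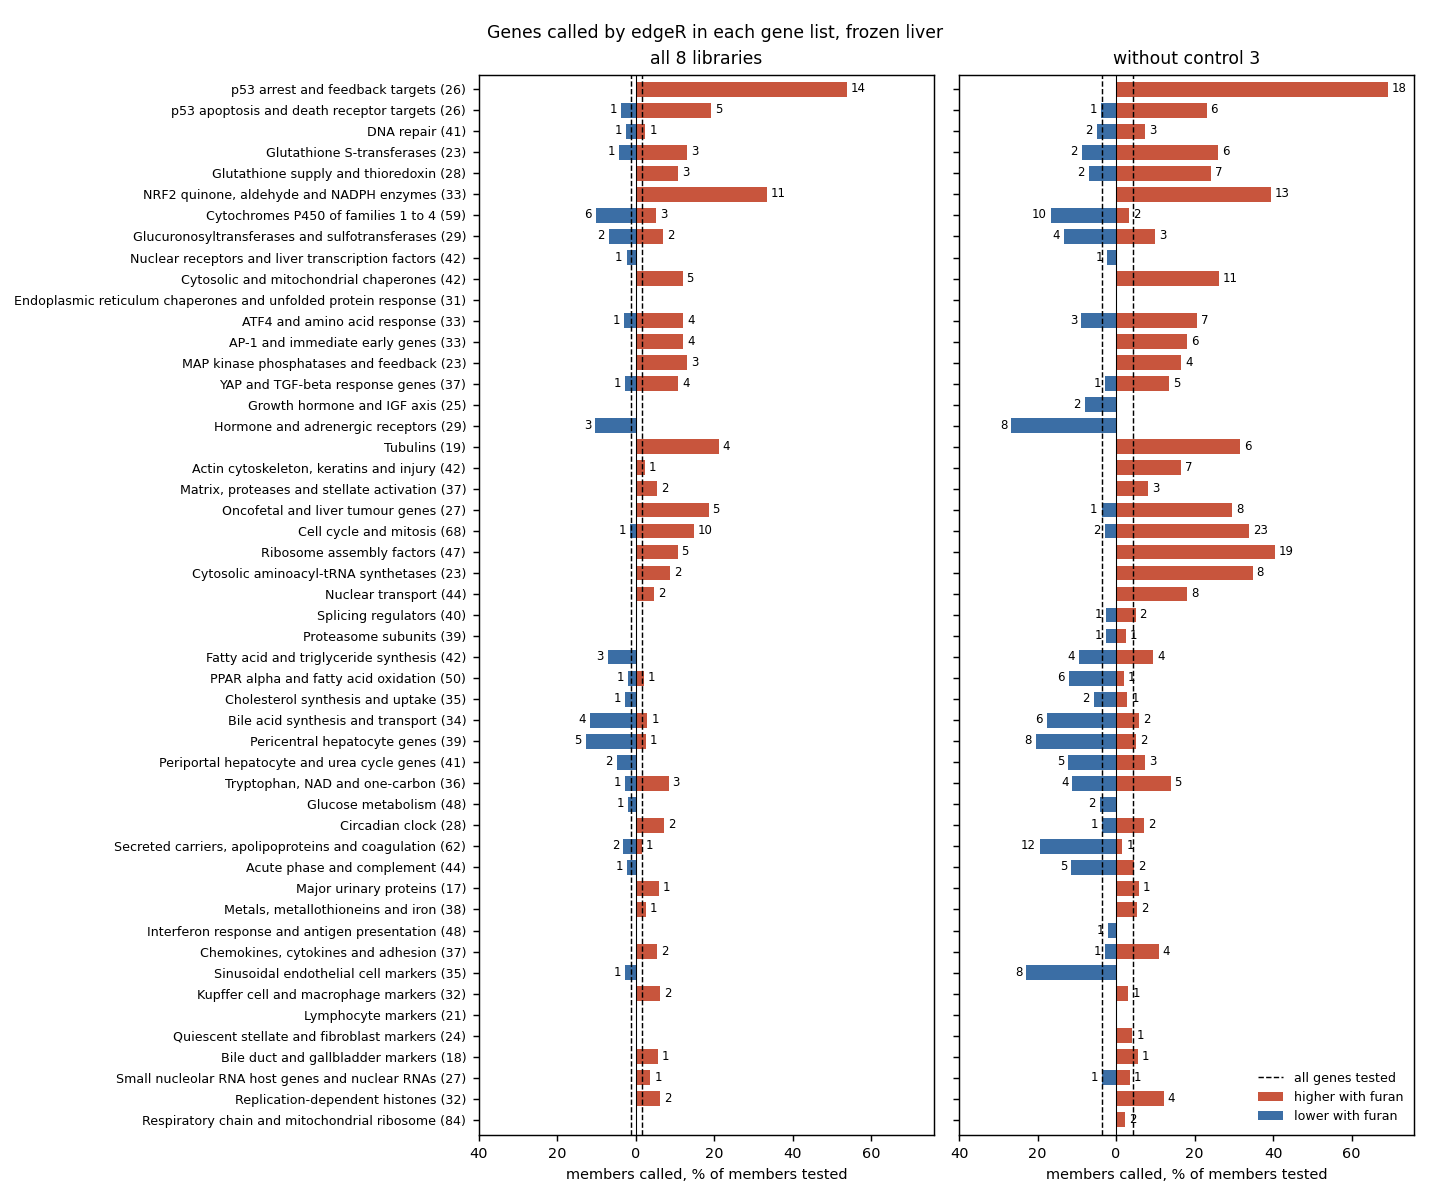
Share of tested members of each gene list with at least 10 tested (number tested with all 8 libraries in brackets) called higher (right) or lower (left) with furan, with all 8 libraries (left panel) and without control 3 (right panel), with the count beside each bar and dashed lines at the share of all genes tested. The p53 arrest list has 14 of 26 higher and the NRF2 enzyme list 11 of 33, and without control 3 the ribosome assembly list goes from 5 to 19 and the hormone receptor list from 3 to 8.

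Among the largest changes outside these lists, 4632434I11Rik, which RefSeq lists as Ddias, the DNA damage-induced apoptosis suppressor, rose from 1.62, 1.43, 1.39 and 1.37 CPM to 11.02, 8.99, 10.3 and 14.6 CPM (2.95 ± 0.19, adjusted p = 5.19e-05). B930025P03Rik fell from 14.8, 7.81, 12.3 and 12.9 CPM to 3.07, 1.799, 1.998 and 1.36 CPM (-2.54 ± 0.27), and Lect1, chondromodulin, an inhibitor of vessel growth, from 7.07, 7.68, 5.35 and 7.04 CPM to 1.26, 2.03, 1.49 and 1.71 CPM (-2.06 ± 0.21). Other falls were those of Pcp4l1 (-1.54 ± 0.18), 1500017E21Rik (-1.83 ± 0.18) and 4833411C07Rik (-1.71 ± 0.16). Slc17a8, a vesicular glutamate transporter, fell from 33.4, 41.2, 33.2 and 41.05 CPM to 22.01, 6.86, 12.1 and 10.97 CPM with all 8 libraries (-1.52 ± 0.28) and missed without control 3 (adjusted p = 0.0939). Fbf1 held 4.92, 12.3, 8.72 and 14.6 CPM in controls and 70.4, 17.4, 47.4 and 28.4 CPM with furan, and passed with 8 libraries (2.01 ± 0.42) but not without control 3 (adjusted p = 0.145). Leaving out libraries singly, calls held in all 8 for 4632434I11Rik, B930025P03Rik, Lect1, Pcp4l1, 1500017E21Rik and 4833411C07Rik, in 4 for Slc17a8 and in 3 for Fbf1, and the largest adjusted p was 0.145 (Fbf1).

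Called genes outside the lists included some at high CPM, a measure not corrected for gene length. Pigr, the polymeric immunoglobulin receptor that carries IgA into bile, fell from 2072, 2334, 1908 and 1756 CPM to 1303, 1272, 1101 and 931 CPM (-0.81 ± 0.14, adjusted p = 0.0132). Serping1, the complement C1 inhibitor, fell by 0.60 ± 0.14, Cml2 by 0.64 ± 0.13, 2810007J24Rik by 0.65 ± 0.15 and 1300017J02Rik by 0.52 ± 0.11 on the log2 scale. Aldh1a7, an aldehyde dehydrogenase close in sequence to Aldh1a1, rose from 207, 163, 159 and 195 CPM to 313, 246, 285 and 303 CPM (0.66 ± 0.13), and Ly6e, a surface protein induced by interferon, from 249.7, 237, 241 and 204 CPM to 294, 368, 387 and 337 CPM (0.57 ± 0.12). After removal of any single library, calls held in 6 for Pigr, in 4 for Aldh1a7, in 3 for Ly6e, in 2 for 2810007J24Rik and 1300017J02Rik and in 1 for Serping1 and Cml2, and the largest adjusted p was 0.151 (Serping1).

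Many calls depended on control 3. Of the 766 genes called without it alone, 762 were tested in both fits, 414 higher and 348 lower. In 204 of the 414 rises and 169 of the 348 falls control 3 was the control nearest to the furan libraries, and in 83 and 75 it lay within their range. It lay beyond the furan range in 53 rises and 46 falls. Among genes called with all 8 libraries, control 3 was the nearest control in 45 of 222 rises and 31 of 170 falls. The genes called without control 3 alone were selected by leaving it out, so its place in them follows in part from that choice. Aldh1b1, a mitochondrial aldehyde dehydrogenase, had 89.7, 90.5 and 100.3 CPM, 176 CPM in control 3 and 163, 141, 173 and 148 CPM, and was 0.74 ± 0.10 without it. In Aldh1b1 the level of control 3 thus lay above the furan range.

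Lower genes of the same kind had control 3 on either side. Clec2d, a lectin-like receptor, had 255, 249.7 and 235 CPM in controls 2, 4 and 6, 131 CPM in control 3 and 162, 144, 142 and 175 CPM with furan, and was called without control 3 (-0.66 ± 0.10, adjusted p = 0.000525). Mylk, myosin light chain kinase, had 108, 116 and 122 CPM, 229 CPM in control 3 and 75.7, 80.9, 79.5 and 79.5 CPM, so that control 3 lay on the far side. It had the larger estimate with all 8 libraries (-0.86 ± 0.21, adjusted p = 0.0577) and the call without control 3 (-0.55 ± 0.08, adjusted p = 0.000812). Slc22a26, an organic anion transporter, and Ces2a, a carboxylesterase, were also added as lower, at -0.74 ± 0.11 and -0.59 ± 0.10.

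**Figure D4:**
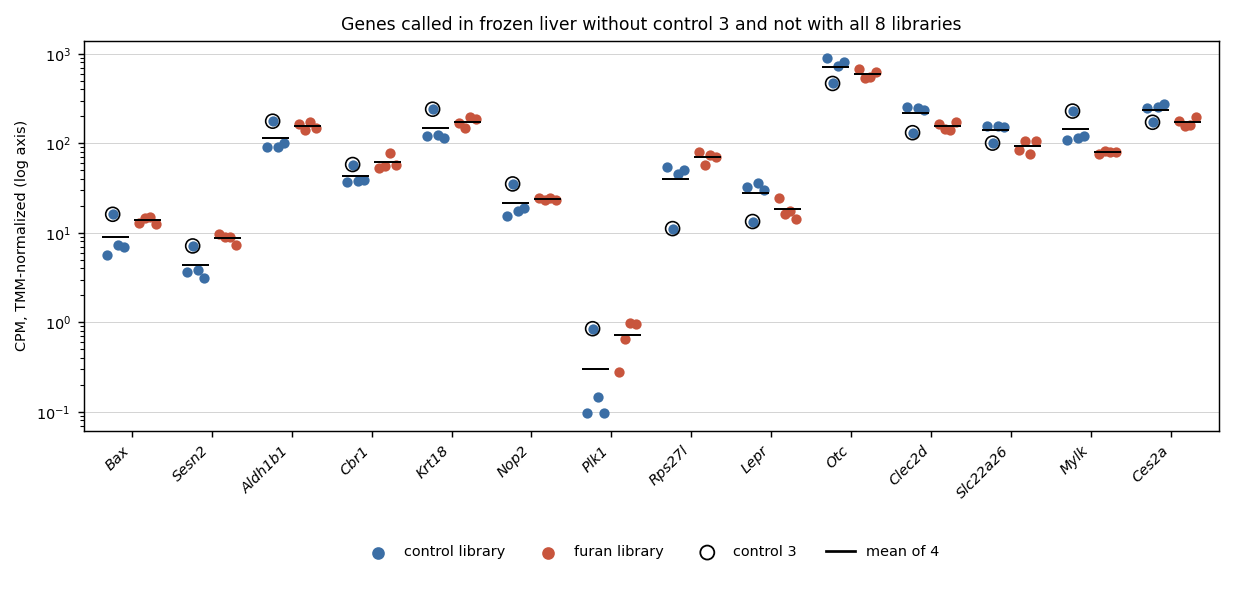
CPM (TMM-normalized, log axis) of 14 genes called without control 3 and not with all 8 libraries, in each of the 4 control and 4 furan libraries, where points are libraries, bars their group means and rings mark control 3. In Cbr1 and Plk1 control 3 lies within the furan range, in Bax, Aldh1b1, Krt18 and Nop2 above it, and in Rps27l and Otc below all other libraries.

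The difference of control 3 correlated with the base composition of genes. Among 8082 genes with a mean log2 CPM of at least 3, it differed over 2-fold from the mean of the other 3 controls in 491, 276 higher and 215 lower, where controls 2, 4 and 6 differed so in 48, 19 and 49 and the furan libraries in 12 to 31. Across 8052 of these genes with a known transcript sequence, the difference of control 3 correlated with GC content at r = 0.683 and with log length at 0.013. Split into 5 bins of equal size by GC, its median difference ran from -0.50 in the lowest bin over -0.27, -0.03 and 0.24 to 0.58 in the highest. The values for controls 2, 4 and 6 were r = -0.634, -0.24 and -0.448, each measured against a mean that holds control 3, and for furan 41 to 44 -0.213, 0.25, 0.405 and -0.472. These are descriptions across genes, which share their libraries. Some large differences did not follow this slope. Ndufb4, of the respiratory chain, had 1.67 CPM in control 3 and 26.2, 18.2 and 23.6 CPM in the other controls. Rpl39, of the ribosome, had 4.55 CPM and 22.2, 19.6 and 22.4 CPM. Their GC contents of 52.2% and 48.7% fall in bins where the median difference was 0.24 and -0.03. Ndufb7, also of the respiratory chain (53.6% GC), went the other way, at 75.0 CPM against 19.03 to 25.3 CPM. Genes of the highest GC bin included the linker histone Hist1h1c (55.1% GC) and the tight junction gene Cldn3 (62.7%). Hist1h1c had 60.9 CPM in control 3 and 10.9, 14.2 and 7.11 CPM in the others, and Cldn3 85.1 and 15.7, 25.3 and 16.6 CPM.

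The furan contrast sloped with GC as well. With all 8 libraries the median log2 fold change of furan over control fell from 0.13 in the lowest GC bin over 0.09, 0.02 and -0.07 to -0.18 in the highest, and without control 3 it was 0.02, 0.04, 0.02, 0.01 and -0.0019. An alternative fit with an offset for GC content in each library called 932 genes with all 8 libraries, of which 832 (89.3%) were among the 1148 called without control 3 (72.5% of those). It kept 381 of the 392. This alternative was added after the data had been seen.

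These differences were compared with those in the 2 fixed pieces of the same liver. In the piece kept in formalin for 18 hours, control 3 differed over 2-fold from the other controls in 2 of these genes, against 22, 15 and 40 for controls 2, 4 and 6. Of its 491 frozen differences 271 had the same sign there, with a median of 0.02 in the frozen direction, and the differences correlated at r = 0.0409 across genes. In the piece kept for 3 weeks, control 3 differed over 2-fold in 297 genes, against 401, 453 and 340 for controls 2, 4 and 6. Of its 491 frozen differences 226 had the same sign there, with a median of -0.04 in the frozen direction and r = -0.0403. Each other animal's frozen library matched its own piece fixed for 18 hours best among the 4 of its group, with correlations of deviations from 0.247 to 0.389. For control 3 this correlation was 0.0475, and its best match was control 4. A1bg was an exception, with 467 CPM in control 3 and 119, 139 and 94.04 CPM in the other frozen controls, and log2 differences of 2.22 in the piece fixed for 18 hours and 1.64 in that fixed for 3 weeks. What set the frozen library of control 3 apart was not tested.

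**Figure D5:**
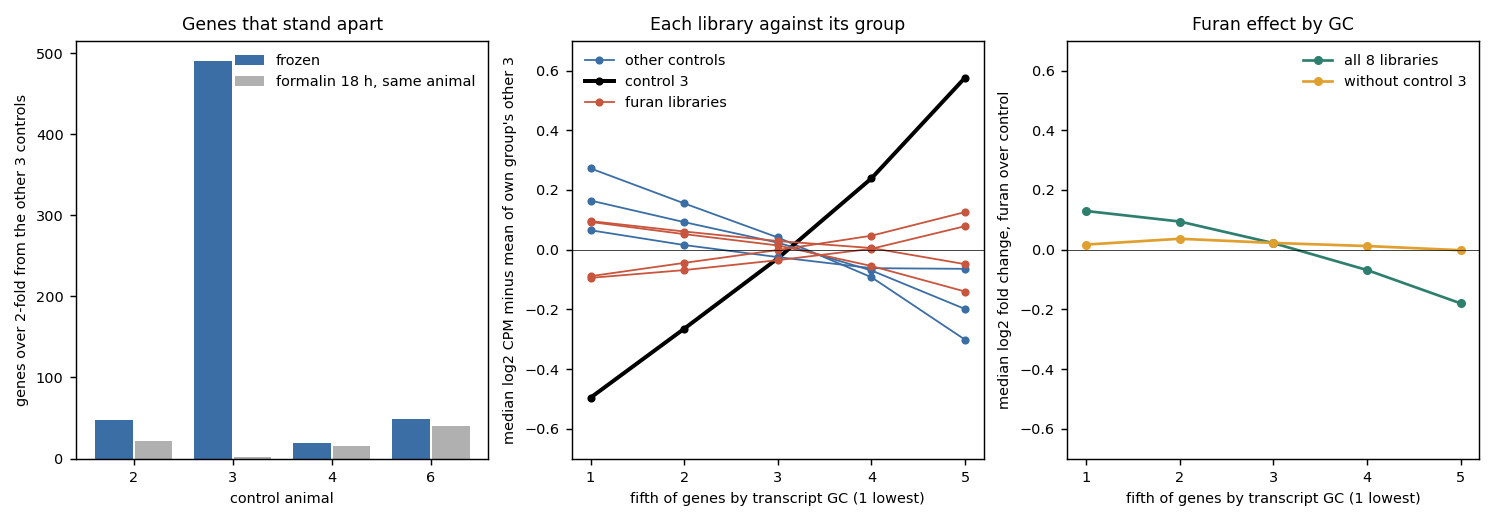
Left, number of genes (of 8082) over 2-fold from the mean of the other 3 controls, for each control animal in frozen tissue and in the piece fixed for 18 hours; middle, median log2 CPM difference of each frozen library from the other 3 of its group over 5 equal bins of genes by transcript GC; right, median log2 fold change of furan over control in the same bins. Control 3 has 491 such genes frozen and 2 fixed, its line climbs from -0.50 to 0.58, and the furan effect slopes from 0.13 to -0.18 with it and lies between -0.0019 and 0.04 without it.

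The furan effect itself was compared between frozen and fixed pieces of the same animals by an interaction term. With 18 hours in formalin 0 of 14843 genes were called (0% at adjusted p below 0.05, 239 at an unadjusted p below 0.05), and with 3 weeks 0 of 14253 (585 unadjusted). With the animal as a block these were again 0 and 0 (340 and 483 unadjusted). Acmsd was among the genes of smallest p at 18 hours: its effect was 0.63 ± 0.17 larger in frozen tissue on the log2 scale (unadjusted p = 0.00143, adjusted p = 1), and the fixed pieces held 18.97, 17.3, 17.3 and 19.7 CPM in controls and 35.97, 37.3, 41.6 and 43.4 CPM with furan. A call missed does not show that the effects are equal.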

How the data were processed

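The values are whole-number gene counts that the authors deposited, 1 column per library. The submitters' processing notes name CASAVA 1.8.2, STAR 2.3.0, featureCounts 1.4.4 and the build mm9 without giving their roles or order. Whether counting used strand is not given in the sources used here, so overlapping and antisense genes may share counts, and near-identical family members (cytochromes P450, major urinary proteins, sulfotransferases, tubulins, histones) are uncertain. Libraries were assigned by their labels, each from a separate animal.

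From the counts, low genes were removed with filterByExpr, libraries were scaled by TMM and furan was tested against control over the 8 frozen libraries with edgeR 4.0.16 (robust quasi-likelihood test, two-sided) in R 4.3.3. Adjusted p-values are Benjamini-Hochberg values over all genes tested, and a gene was called below 0.05. Values per library are TMM-scaled CPM. SEs of log2 fold changes were derived from the estimate and its F statistic (estimate / sqrt(F)). The fit was repeated without control 3, and the effect was compared between frozen and fixed pieces with an interaction term. DESeq2 1.42.0, voom weights in limma 3.58.1, other scalings and filters, a fit over all 24 libraries, a test against a 1.5-fold change and fits without each library were alternatives. An offset for GC content was added after the data had been seen (lowess span 0.3).

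The rule for named genes took the 20 largest rises and 20 largest falls, the 8 of highest CPM in each direction, up to 6 members of smallest p in each of 52 lists, the 10 rises and 10 falls of smallest p called without control 3 alone, the 10 genes that departed most in control 3 in each direction, and the 6 of smallest p for each interaction. Other genes, such as list members named for the fit without control 3, were chosen after their values were seen. The comparison and the lists were chosen with earlier results of these data known. Some members of the lists, counted with them, are not reported here by name.

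Same-numbered frozen and fixed pieces come from the same animal. Their deviations from group means correlated at 0.247 to 0.389 with 18 hours in formalin and 0.0925 to 0.176 with 3 weeks, except control 3 at 0.0475 and -0.0272. Control and furan animals share no number, so the frozen comparison has no pairing. Transcript GC content came from GENCODE vM21, matched by gene name, and promoter sequences from RefSeq (GRCm38.p6), neither of them on the build of the counts. The scripts were tested on simulated data with known changes.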

Additional observations from a re-analysis of the deposited data

Results flagged for a closer look

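In groups of 4, a library was singled out when its gap to the nearest of the others was a larger share of the group's range than Dixon's 95% critical value allows. Of 202 groups tested 22 met this, 17 of them through control 3. Chance alone meets it in about 1 of 20 groups, a rate that does not apply to control 3 here: its 15 genes were named because control 3 departed in them or because they were called without it alone. Control 3 had the lowest mean correlation with the other controls, 0.955 against 0.974 to 0.977, and the lowest first principal component, -84.5 against -2.19 to 8.33.

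Control 3 was the highest control in 12 genes. Its levels were 118.1 CPM for Brd2 (76.9 to 83.7 in the other controls), 16.1 for Bax (5.59 to 7.27), 176.2 for Aldh1b1 (89.7 to 100.3), 57.8 for Cbr1 (37.2 to 38.6) and 228.5 for Mylk (108.1 to 121.9). They were 116.2 CPM for Snord17 (24.03 to 27.6), 31.6 for Snora78 (4.003 to 7.71), 60.9 for Hist1h1c (7.11 to 14.2), 85.1 for Cldn3 (15.7 to 25.3), 466.9 for A1bg (94.04 to 139.5), 22.98 for Trappc6a (5.67 to 7.06) and 75.0 for Ndufb7 (19.03 to 25.3). It was the lowest in 3 genes, at 131.1 CPM for Clec2d (234.6 to 255.5), 100.3 for Slc22a26 (153.6 to 157) and 4.55 for Rpl39 (19.6 to 22.4).

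The other 5 were spread over 4 libraries. Control 2 had 1537 CPM of 2810007J24Rik against 1012 to 1071 in the other controls. Furan 43 had 7.84 CPM of Phlda3 against 3.95 to 4.47 in the other furan libraries. Furan 41 was lowest for Mapkapk2, at 79.6 CPM against 87.4 to 87.96, and for Rrp12, at 8.01 against 9.83 to 10.1. Furan 44 had 16.8 CPM of Ndufb7 against 22.1 to 23.2.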

How the results depend on the processing

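With all 8 libraries the 392 calls became 1066 with DESeq2, 1343 with voom weights, 932 with the GC offset and 42 against a 1.5-fold change. DESeq2 size factors gave 384, no filter 385 and a mean CPM of at least 1 gave 394. The fit over all 24 libraries called 517 genes, 232 higher and 285 lower, against 222 and 170. Leaving out 1 library gave 99 to 1148 calls, with the fewest without furan 44. Without control 3, leaving out 1 more library gave 634 to 1090 calls against 1148. The cause of these shifts was not tested. Of the 153 called genes chosen by the naming rule, none reversed under these alternatives other than the 1.5-fold test, in which they were not followed singly. Between 116 (all 24 libraries) and 152 (DESeq2) kept their call under the others that leave out no library. The interactions had 0 calls at both fixation times with and without the replicate block and with size factors. Leaving out 1 animal number gave 0 to 1 calls at 3 weeks. The p-values cover the spread between these animals.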
